A study of Oryza sativa with 6 samples.

Results

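The aldehyde dehydrogenases and zinc alcohol dehydrogenases of developing rice embryos are described here. A gene was taken as a member when the authors' domain annotation listed the Aldedh domain, or the ADH_N or ADH_zinc_N domain of zinc-dependent alcohol dehydrogenases. Of 61955 annotated genes, 74 carried such a domain: 22 aldehyde dehydrogenases (ALDH) and 52 alcohol dehydrogenases (ADH). No gene carried both kinds. The rule used no measured value.

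Embryos were taken from grain 15 days after flowering, and their RNA was sequenced in 6 samples. The giant embryo line NIL-D, whose genotype the labels give as CMP-/-, had 3 samples, and the normal embryo line NIL-X, labelled wild type, had 3. The sample titles call NIL-D GED, and by the paper this line has the Dapeimi allele of the GIANT EMBRYO gene (GE). The near-isogenic lines were selfed out of a cross between the giant embryo cultivar Dapeimi and 187R, so any segment around the selected locus, and any segment fixed elsewhere, also differs between them and cannot be told apart from the allele. By the paper, both lines were grown in the same 3 field plots, with 1 sample of each line per plot. Which plot a replicate number stands for is not given, so the test below left plots out. Its p-values measure the spread between these samples.

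Aldehyde dehydrogenases oxidise aldehydes to carboxylic acids with NAD or NADP. In plants they clear acetaldehyde made by fermentation and aldehydes from lipid peroxidation, and they take part in the metabolism of proline, gamma-aminobutyrate (GABA), betaine and branched-chain amino acids. Zinc alcohol dehydrogenases interconvert alcohols and aldehydes or ketones, and relatives with the same fold act on cinnamyl alcohols, sorbitol, quinones, alkenals and enoyl thioesters. In cereal grain, ADH1 with pyruvate decarboxylase turns pyruvate to ethanol when oxygen is short.

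The values were TPM, a length-corrected share of the transcripts of a sample, which keeps no read depth. A gene was tested when its mean over the 6 samples was at least 0.5 TPM, which 21500 genes passed, among them 49 members (19 ALDH, 30 ADH). The test was limma on log2(TPM + 1), with Benjamini-Hochberg adjustment over all tested genes, and a gene was called at an adjusted p below 0.05 with a log2 fold change of at least 1 in size. Fold changes are NIL-D over NIL-X on that scale, which understates the change of low genes. NIL-D replicate 3 stood apart: its log2 values correlated at 0.921 and 0.933 with NIL-D replicates 1 and 2, against 0.975 between those, across genes, which are not independent replicates. NIL-D replicates 1 and 2 correlated with the NIL-X samples at 0.937 to 0.947. NIL-D replicate 3 did so at 0.929, 0.922 and 0.941 with NIL-X replicates 1, 2 and 3. It was the lowest of the 6 samples in 42.8% of all tested genes and in 20 of the 49 tested members (40.8%). Over all tested genes the log2 fold change had a median of -0.15.

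The tissue label was checked with marker genes. The summed level of 14 genes annotated with an oleosin or caleosin domain was 40196 to 42219 TPM in NIL-D against 38842 to 41873 TPM in NIL-X. Oleosins coat the oil bodies of the embryo, and 2 genes of the list are annotated otherwise (OsZS_05G0147900, a receptor-like kinase listed at 0, and OsZS_12G0372900, a calmodulin-like protein). The summed level of 36 genes whose description names a glutelin, a prolamin or granule-bound starch synthase, products of the endosperm, was 42034 to 42176 TPM in NIL-D against 41623 to 53123 TPM in NIL-X, so RNA of endosperm-type genes was present in both lines. Most of that sum came from OsZS_08G0025200, annotated as a cocosin storage globulin, with 31651.98 to 37483.81 TPM in NIL-D against 30188.54 to 36126.30 TPM in NIL-X. Without that gene the sum was 6894, 10382 and 4607 TPM in NIL-D against 7924, 16997 and 18513 TPM in NIL-X. Of the 31 endosperm marker genes tested, none was called by limma and 12 (38.7%) had an unadjusted p below 0.05, against 15.6% of all tested genes. The list's median log2 fold change was -0.65. In 7 (22.6%) every NIL-D sample was lower, 1 of them for a protein that acts in glutelin sorting (OsZS_03G0603300), and in 1 (3.23%) every NIL-D sample was higher, against 19.7% and 4.53% of all tested genes. The 29 genes with a chlorophyll a/b-binding or Rubisco small subunit domain, of which 1 is annotated as a ferrochelatase and 1 as a fucosyltransferase, summed to 255 to 609 TPM in NIL-D against 485 to 673 TPM in NIL-X. The part that these other tissues have in the values below was not tested, and fewer cells of a type cannot be told apart from less RNA per cell.

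Among ALDH genes, 1 of the 19 tested was called, and it was higher in NIL-D; across all tested genes 0.642% were called, 0.265% higher and 0.377% lower. Among ADH genes, 2 of 30 were called, 1 higher and 1 lower. Both have the same closest database protein, and with such copies summed 0 ADH genes were called. The 30 include a pair of models with identical values in every sample. Samples of the lines did not overlap in 5 ALDH genes, 1 higher in NIL-D (5.26%) and 4 lower (21.1%), against 4.53% higher and 19.7% lower among all tested genes. For ADH genes, 4 of 30 (13.3%) were higher in every NIL-D sample, and 6 of 30 were lower, a share near that of all genes. An unadjusted p below 0.05 was reached by 3 ALDH genes (15.8%) and 8 ADH genes (26.7%), against 15.6% of all tested genes. The median log2 fold change was -0.06 for ALDH and -0.11 for ADH genes.

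**Figure D1:**
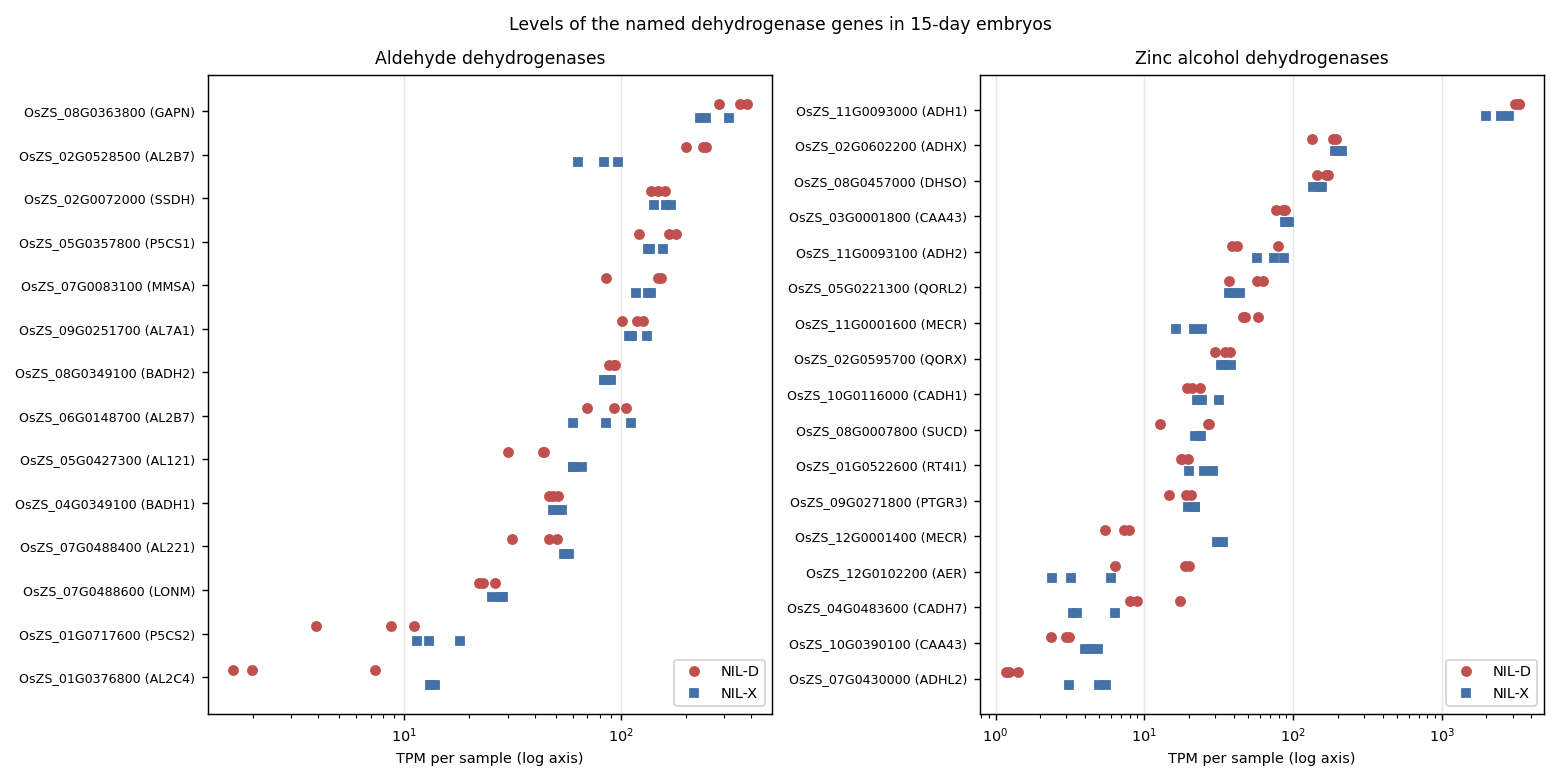
TPM of the named genes (log axis) in each of 3 NIL-D samples (circles) and 3 NIL-X samples (squares), with the short code of the closest annotated protein. ADH1 lies above all others, and the symbols of OsZS_02G0528500, OsZS_11G0001600 and OsZS_12G0001400 are separated between the lines.

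Family 2 class B aldehyde dehydrogenases are mitochondrial enzymes that oxidise acetaldehyde, and OsZS_02G0528500 is annotated as one. It had 248.47, 199.07 and 240.07 TPM in NIL-D, against 63.56, 97.56 and 83.78 TPM in NIL-X. Every NIL-D sample was above every NIL-X sample, by a wide gap. The mean was 229 ± 26.4 TPM in NIL-D against 81.6 ± 17.1 TPM in NIL-X (SD, n = 3 each), a ratio of 2.81. Its log2 fold change was 1.49 (SE 0.19, 95% interval 1.04 to 1.94), and limma gave an adjusted p of 0.0293. It made up 15.4%, 12.9% and 17.5% of the summed ALDH level in the NIL-D samples, against 4.83%, 7.29% and 6.20% in the NIL-X samples. The call was lost without any 1 sample other than NIL-D replicate 3: the adjusted p was 0.117 without NIL-D replicate 1, 0.0905 without NIL-D replicate 2, 0.112 without NIL-X replicate 1, 0.0645 without NIL-X replicate 2 and 0.102 without NIL-X replicate 3. It was also lost with no filter on TPM (adjusted p = 0.0555) and with a block for replicate number (adjusted p = 0.121). The call held in 7 of 14 alternatives, with log2 fold changes of 1.33 to 1.67 over all of them. The paper already reports this gene as up-regulated from the same samples, so the call is no independent finding.

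The other gene of this class, OsZS_06G0148700, had 69.72, 93.29 and 106.22 TPM in NIL-D against 85.02, 111.49 and 60.36 TPM in NIL-X. The lines overlapped, and the log2 fold change was 0.09 (95% interval -0.53 to 0.71, limma adjusted p = 0.890). Both genes are annotated with the same Arabidopsis protein, and how reads shared between them were divided was not tested. Their sum was 318.19, 292.36 and 346.29 TPM in NIL-D, against 148.58, 209.05 and 144.14 TPM in NIL-X, so the sum was also higher in every NIL-D sample.

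**Figure D2:**
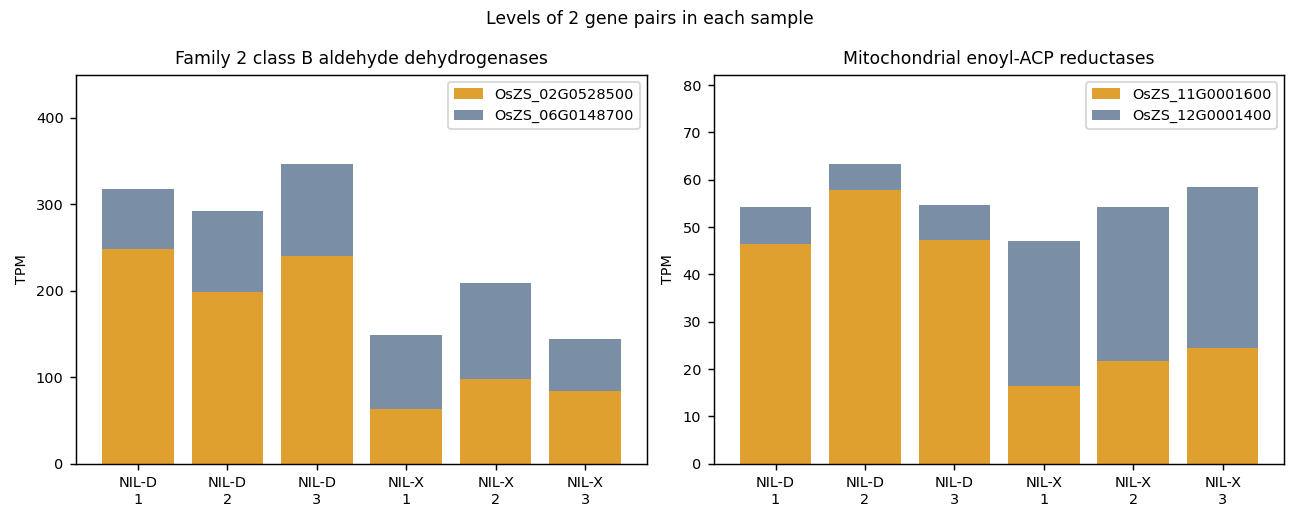
Stacked TPM of 2 gene pairs in each sample, NIL-D on the left and NIL-X on the right. The summed class B level was higher in the NIL-D samples (292.36 to 346.29 TPM, against 144.14 to 209.05 TPM), whereas the summed enoyl-ACP reductase level overlapped and its makeup differed.

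Of the class C family 2 genes, whose Arabidopsis relative acts on sinapaldehyde and coniferaldehyde, OsZS_01G0376800 had 1.98, 1.63 and 7.30 TPM in NIL-D, against 13.20, 13.81 and 13.37 TPM in NIL-X. All NIL-D samples were lower, and NIL-D replicate 3 lay between the other NIL-D samples and NIL-X. Its log2 fold change of -1.85 (SE 0.43) did not pass (limma adjusted p = 0.147). Without NIL-D replicate 3 it was -2.37 with an adjusted p of 0.00170. Over all 14 alternatives the adjusted p ran from 0.00170 to 0.441. Leaving out NIL-D replicate 3 raised the calls over all tested genes from 138 to 611.

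Enzymes of proline metabolism were among those with non-overlapping samples, though none was called. Delta-1-pyrroline-5-carboxylate dehydrogenase (OsZS_05G0427300), the enzyme that yields glutamate in proline breakdown, had 43.66, 44.39 and 30.01 TPM in NIL-D against 66.26, 59.93 and 60.13 TPM in NIL-X. All NIL-D samples lay below NIL-X, with a log2 fold change of -0.66 (95% interval -1.08 to -0.25, limma adjusted p = 0.183). Delta-1-pyrroline-5-carboxylate synthases catalyse the first steps of proline synthesis, and of these OsZS_01G0717600 had 8.66, 11.14 and 3.90 TPM in NIL-D against 13.00, 18.08 and 11.46 TPM in NIL-X (log2 fold change -0.84, 95% interval -1.70 to 0.01, limma adjusted p = 0.322). The more abundant synthase gene, OsZS_05G0357800, averaged 156 ± 30.7 TPM in NIL-D against 142 ± 12.2 TPM in NIL-X (SD, n = 3 each), and its samples overlapped.

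The most abundant ALDH gene was OsZS_08G0363800, a NADP-dependent glyceraldehyde-3-phosphate dehydrogenase that makes NADPH in the cytosol. It had 380.42, 354.55 and 283.59 TPM in NIL-D against 232.21, 247.49 and 314.98 TPM in NIL-X. NIL-D replicate 3 and NIL-X replicate 3 crossed over, and the log2 fold change was 0.36 (95% interval -0.08 to 0.79, limma adjusted p = 0.389).

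None of the ALDH genes of GABA, lysine, valine and betaine metabolism was called, and the samples of the lines overlapped in each. Succinate-semialdehyde dehydrogenase (OsZS_02G0072000), which completes GABA breakdown, averaged 148 ± 11.1 TPM in NIL-D against 159 ± 14.3 TPM in NIL-X (SD, n = 3 each). The family 7 gene OsZS_09G0251700 averaged 116 ± 12.6 TPM in NIL-D against 118 ± 12.5 TPM in NIL-X. Methylmalonate-semialdehyde dehydrogenase (OsZS_07G0083100), of valine breakdown, had 149.10, 152.63 and 85.26 TPM in NIL-D against 133.04, 118.08 and 137.23 TPM in NIL-X, and NIL-D replicate 3 was the lowest of all. BADH2 (OsZS_08G0349100), the betaine aldehyde dehydrogenase known in rice for its link to grain fragrance, averaged 91.8 ± 3.31 TPM in NIL-D against 86.3 ± 3.13 TPM in NIL-X. Its relative BADH1 (OsZS_04G0349100) averaged 48.7 ± 2.43 TPM in NIL-D against 50.9 ± 2.51 TPM in NIL-X. The 95% interval of the log2 fold change was -0.16 to 0.34 for BADH2 and -0.32 to 0.20 for BADH1, the narrowest in the family, while that of OsZS_07G0083100 was -0.62 to 0.52.

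The family 22 gene OsZS_07G0488400 had 50.66, 46.73 and 31.62 TPM in NIL-D against 57.45, 54.86 and 55.62 TPM in NIL-X, all lower in NIL-D (log2 fold change -0.40, limma adjusted p = 0.360). A neighbouring model, OsZS_07G0488600, carries the Aldedh domain but is annotated as a Lon protease, and its samples overlapped (23.8 ± 2.12 TPM in NIL-D, 27.4 ± 1.81 TPM in NIL-X). Of 5 family 3 genes, which act on fatty aldehydes in plants, 4 were tested and all overlapped, with log2 fold changes of -0.46 to 0.62. Their summed level was 37.0 to 45.9 TPM in NIL-D against 39.0 to 45.5 TPM in NIL-X. The 3 untested ALDH genes included 1 that is listed at 0 in every sample.

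**Figure D3:**
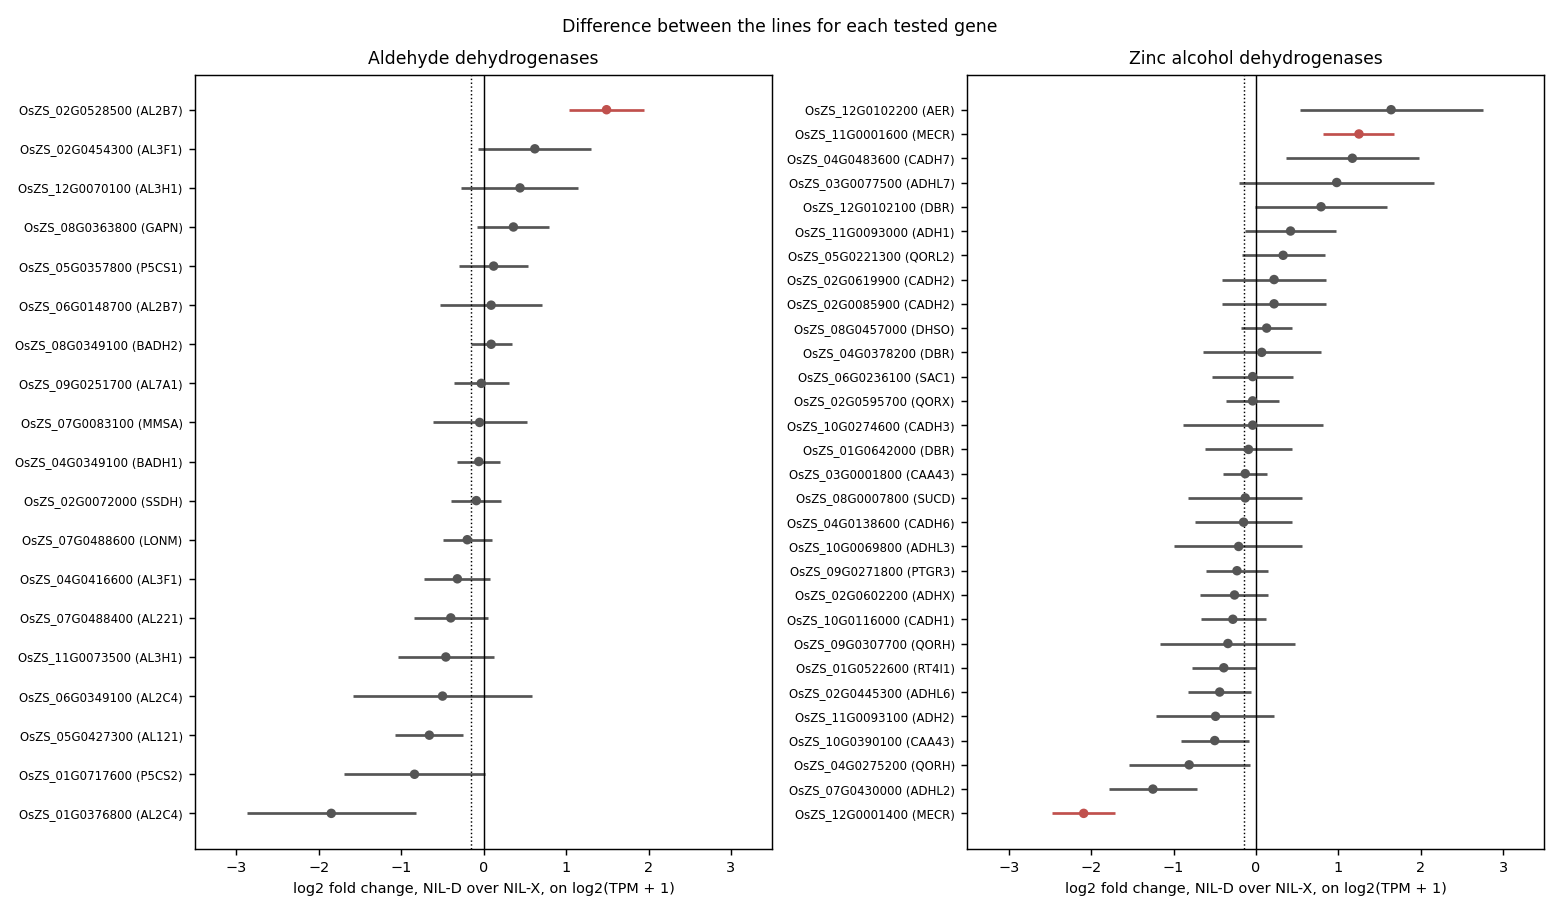
Log2 fold change (NIL-D over NIL-X) of all 49 tested members with 95% intervals, called genes in red, and the median of all tested genes (-0.15) dotted. The 3 called genes lie at 1.49, 1.25 and -2.09.

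ADH1 (OsZS_11G0093000) dominated the alcohol dehydrogenases. It had 3285.24, 3114.84 and 3296.46 TPM in NIL-D, against 1986.39, 2514.76 and 2814.92 TPM in NIL-X. All NIL-D samples were above all NIL-X samples, but NIL-X spread widely, and the log2 fold change of 0.42 (SE 0.23, 95% interval -0.13 to 0.97) had a limma adjusted p of 0.414. The gene had rank 24, 30 and 29 among all genes by TPM in the NIL-D samples and rank 44, 34 and 32 in the NIL-X samples. It held 77.8% to 80.8% of the summed ADH level in NIL-D and 69.7% to 75.4% in NIL-X. Without it, the other 51 ADH genes summed to 846 ± 55.4 TPM in NIL-D against 879 ± 35.5 TPM in NIL-X (SD, n = 3 each).

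ADH2 (OsZS_11G0093100), the neighbour of ADH1, had 39.08, 42.07 and 79.45 TPM in NIL-D against 57.10, 74.69 and 87.26 TPM in NIL-X. The lines overlapped because of NIL-D replicate 3, and the log2 fold change was -0.49 (95% interval -1.21 to 0.22, limma adjusted p = 0.457). Without NIL-D replicate 3 it was -0.81 (adjusted p = 0.0657). Another adjacent model, OsZS_11G0093200, is listed at 0 in every sample. How reads were divided among these neighbours was not tested.

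Pyruvate decarboxylase supplies the acetaldehyde that ADH1 reduces. The 10 genes for pyruvate decarboxylase and lactate dehydrogenase gave 5 tested genes, none called by limma and 0 with an unadjusted p below 0.05. PDC2 (OsZS_03G0174700) had 2416.05, 2387.30 and 2533.68 TPM in NIL-D against 1385.58, 1896.65 and 2348.07 TPM in NIL-X, all higher in NIL-D (log2 fold change 0.41, limma adjusted p = 0.455). PDC1 (OsZS_05G0369600) is named here although it was neither called nor the most expressed of these genes. It had 619.11, 400.85 and 875.70 TPM in NIL-D against 130.93, 119.18 and 599.57 TPM in NIL-X. NIL-X replicate 3 lay within the range of NIL-D, far above the other NIL-X samples, and the interval of the log2 fold change was -0.04 to 3.05. NIL-X replicate 3 was also the highest NIL-X sample for ADH1 and PDC2. Of the 5 tested genes, 3 had log2 fold changes above 0 and 2 below. The adjacent PDC1 model OsZS_05G0369700 was at 1.29 (limma adjusted p = 0.341). Those below 0 were pyruvate decarboxylase OsZS_01G0057900 (-0.18) and lactate dehydrogenase OsZS_02G0005300 (-0.59).

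**Figure D4:**
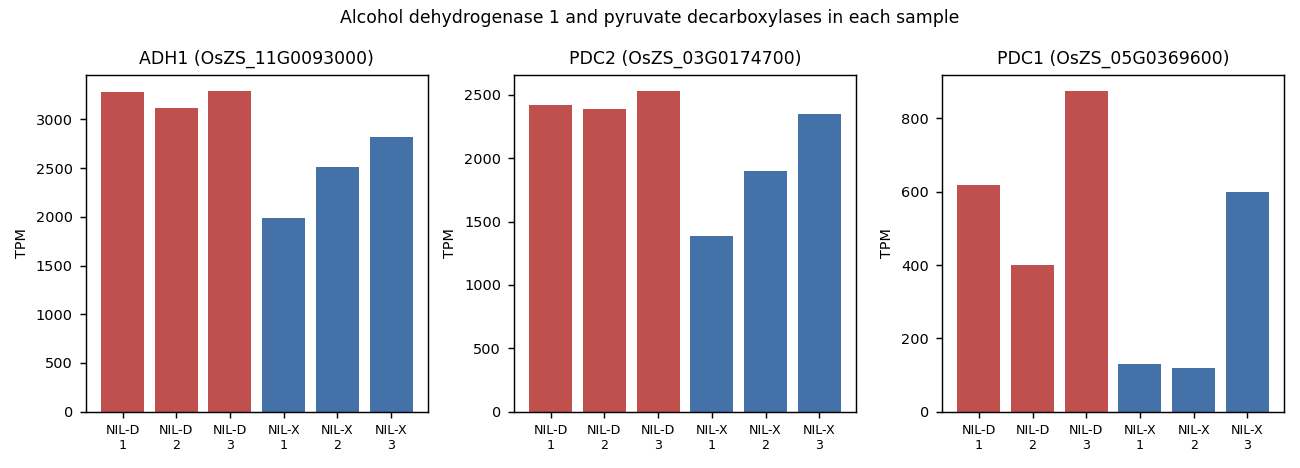
TPM of ADH1, PDC2 and PDC1 in each sample, NIL-D in red on the left and NIL-X in blue on the right. NIL-X replicate 3 is the highest NIL-X sample in all 3 panels. The other tested pyruvate decarboxylase and lactate dehydrogenase genes are not shown.

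Mitochondrial enoyl-ACP reductases carry out the last step of each cycle of mitochondrial fatty acid synthesis, and 2 genes for this enzyme were called in opposite directions. OsZS_11G0001600 had 46.33, 57.79 and 47.26 TPM in NIL-D, against 16.41, 21.67 and 24.52 TPM in NIL-X. OsZS_12G0001400 had 7.87, 5.47 and 7.34 TPM in NIL-D, against 30.64, 32.47 and 34.01 TPM in NIL-X. No sample of one line reached the range of the other in either gene. OsZS_11G0001600 rose by 1.25 on the log2 scale (SE 0.18, limma adjusted p = 0.0457) and OsZS_12G0001400 fell by 2.09 (SE 0.16, limma adjusted p = 0.00440).

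Both genes have the same closest database protein, so they are look-alike copies, and the call of each is uncertain. Their sum was 54.20, 63.26 and 54.60 TPM in NIL-D against 47.05, 54.14 and 58.53 TPM in NIL-X, which overlapped. Tested as 1 gene, the sum had a log2 fold change of 0.11 (SE 0.13, 95% interval -0.21 to 0.43, limma adjusted p = 0.722). What differed was the division: OsZS_11G0001600 held 85.5%, 91.4% and 86.6% of the sum in NIL-D and 34.9%, 40.0% and 41.9% in NIL-X. Whether a sequence difference between the lines moves reads from one copy to the other was not tested. The call of OsZS_12G0001400 held in all 14 alternatives that kept the copies apart, whereas that of OsZS_11G0001600 held in 5 and was lost without any 1 sample other than NIL-D replicate 3 (adjusted p 0.137 without NIL-D replicate 1, 0.162 without NIL-D replicate 2, 0.159 without NIL-X replicate 1, 0.154 without NIL-X replicate 2, 0.0850 without NIL-X replicate 3).

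The 2-alkenal reductases reduce reactive alkenals from lipid peroxidation. OsZS_12G0102200 had 18.74, 19.88 and 6.39 TPM in NIL-D against 6.02, 3.20 and 2.38 TPM in NIL-X. NIL-D replicate 3 was just above the highest NIL-X sample, and its log2 fold change of 1.64 (SE 0.47) did not pass (limma adjusted p = 0.202). Its neighbour OsZS_12G0102100 had 22.58, 19.20 and 9.62 TPM in NIL-D against 9.22, 6.74 and 11.36 TPM in NIL-X, with NIL-D replicate 3 inside the range of NIL-X. Without NIL-D replicate 3 both were called, with log2 fold changes of 2.13 (adjusted p = 0.0284) and 1.14 (adjusted p = 0.0456). That fit called 611 of all tested genes, against 138 with all samples. OsZS_12G0102100 was named after its values were seen. The gene models are adjacent and short (453 and 639 bp), and of the 11 genes in the group 7 were not tested.

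Cinnamyl alcohol dehydrogenases make the alcohols from which lignin is built. OsZS_04G0483600 had 17.29, 7.97 and 8.88 TPM in NIL-D against 3.30, 3.53 and 6.34 TPM in NIL-X, all higher in NIL-D (log2 fold change 1.17, 95% interval 0.36 to 1.98, limma adjusted p = 0.212). OsZS_10G0116000 averaged 21.4 ± 2.11 TPM in NIL-D against 26.4 ± 4.84 TPM in NIL-X (SD, n = 3 each), and its samples overlapped. A pair of models for cinnamyl alcohol dehydrogenase 2, OsZS_02G0085900 and OsZS_02G0619900, had identical values in every sample, 11.34, 9.63 and 10.57 TPM in NIL-D against 8.34, 6.16 and 13.37 TPM in NIL-X, so they do not count as separate measurements. Of 13 genes in the group, 7 were not tested and 3 of these are listed at 0 in every sample.

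The class III alcohol dehydrogenase (OsZS_02G0602200), which oxidises the glutathione adduct of formaldehyde, was the second most abundant ADH gene. It had 195.59, 184.93 and 133.67 TPM in NIL-D against 204.28, 191.25 and 214.44 TPM in NIL-X, with a log2 fold change of -0.26 (95% interval -0.68 to 0.15). Among the alcohol dehydrogenase-like genes, OsZS_07G0430000 had 1.17, 1.42 and 1.24 TPM in NIL-D against 4.96, 3.11 and 5.49 TPM in NIL-X. All NIL-D samples were lower and closely spaced, and the log2 fold change of -1.25 (SE 0.22) had a limma adjusted p of 0.0820. It was called without NIL-D replicate 3 (-1.24, adjusted p = 0.0481), where 611 of all tested genes were called, against 138 with all samples. This gene is on chromosome 7, as is GE by the paper, and has a nearby gene number. Whether it lies in a linked segment that differs between the lines was not tested.

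Sorbitol dehydrogenase (OsZS_08G0457000), which turns sorbitol to fructose, averaged 162 ± 14.4 TPM in NIL-D against 147 ± 11.2 TPM in NIL-X (SD, n = 3 each), and the lines overlapped. Of 12 quinone oxidoreductases and relatives, 7 were tested, 6 (85.7%) had a fold change below 0, against 69.9% of all tested genes, none was called by limma and 2 had an unadjusted p below 0.05. In 3 of them (42.9%, against 19.7% of all tested genes) all NIL-D samples were lower, with log2 fold changes of -0.50 (OsZS_10G0390100), -0.39 (OsZS_01G0522600) and -0.13 (OsZS_03G0001800). OsZS_05G0221300 was the only one above 0, with 62.50, 57.69 and 37.02 TPM in NIL-D against 43.97, 40.42 and 37.14 TPM in NIL-X (log2 fold change 0.33, limma adjusted p = 0.477). Its NIL-D replicate 3 was the lowest of all 6 samples. The lowest fold change of the group was that of OsZS_04G0275200, named after its values were seen, with 6.14, 3.76 and 9.42 TPM in NIL-D against 11.71, 9.12 and 13.75 TPM in NIL-X (log2 fold change -0.81, limma adjusted p = 0.291), and the lines overlapped. OsZS_02G0595700 averaged 34.1 ± 3.84 TPM in NIL-D against 35.1 ± 3.04 TPM in NIL-X. The other models with these domains, OsZS_08G0007800 and OsZS_09G0271800 among them, overlapped between the lines and had log2 fold changes of -0.13 and -0.23.

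Of the 22 ADH genes that were not tested, 8 are listed at 0 in every sample. No member exceeded 0.5 TPM in all samples of one line while staying at or below 0.1 TPM in all samples of the other.

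Enzymes that work beside these dehydrogenases were counted in lists chosen by enzyme number. Of 13 tested genes for proline, GABA and polyamine metabolism, 1 was called (7.69%, against 0.642% of all tested genes), 5 were lower in every NIL-D sample (38.5%, against 19.7%) and none was higher in every NIL-D sample (4.53% of all tested genes). Polyamine oxidase 5 (OsZS_04G0535900), which forms aldehydes from polyamines, fell to 9.18, 11.55 and 10.30 TPM in NIL-D, against 29.64, 24.22 and 25.33 TPM in NIL-X (log2 fold change -1.27, limma adjusted p = 0.0202). The monolignol list had 29 tested genes, of which 1 was called (3.45%), 3 were higher in every NIL-D sample (10.3%) and 6 lower (20.7%). The called gene, OsZS_08G0455700, is annotated as a putrescine hydroxycinnamoyltransferase, which joins a hydroxycinnamoyl group to a polyamine and makes no monolignol, and it entered through an enzyme number shared with such acyltransferases. It fell to 5.01, 7.33 and 6.28 TPM in NIL-D, against 46.98, 51.54 and 46.93 TPM in NIL-X (log2 fold change -2.79, limma adjusted p = 0.00128). Other tested putrescine hydroxycinnamoyltransferase genes entered the list the same way. Of these, OsZS_11G0069500 was among those higher in every NIL-D sample and OsZS_06G0072800 among those lower. The shares of this list therefore do not describe monolignol genes alone. None of 15 branched-chain amino acid genes was called by limma, and 5 (33.3%) had an unadjusted p below 0.05, against 15.6% of all tested genes. In 4 of them (26.7%) every NIL-D sample was higher and in 4 (26.7%) lower, against 4.53% and 19.7%. None of 5 tested acetate and formaldehyde genes was called by limma, and 0 had an unadjusted p below 0.05. The most expressed gene of each list was glutamate decarboxylase OsZS_08G0385400 (258 TPM in NIL-D, 271 TPM in NIL-X), hydroxycinnamoyltransferase OsZS_04G0381900 (237 TPM in NIL-D, 138 TPM in NIL-X), 3-hydroxyisobutyryl-CoA hydrolase OsZS_12G0139800 (77.6 TPM in NIL-D, 66.1 TPM in NIL-X) and formate dehydrogenase OsZS_06G0219400 (248 TPM in NIL-D, 217 TPM in NIL-X). Whether the calls of OsZS_04G0535900 and OsZS_08G0455700 hold under the alternatives was not examined.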

How the data were processed

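Embryo RNA of 6 samples was sequenced after library construction with the TruSeq kit. The authors deposited 1 table of TPM per gene, with columns for the 3 samples of each line and the authors' mean of each line, which was not used in tests. By the study's methods, reads were trimmed with SeqPrep and Sickle, mapped with TopHat to the Zhenshan 97 genome ZS97RS3 and quantified with RSEM. The methods name FPKM, whereas each deposited column sums to 1000000 and was taken as TPM. The submitters' processing notes name Bowtie and a mouse build, which go against this. TPM keep no counts, so the reads per gene are unknown and no counting interval can be given. The paper gives the total of clean data and a minimum per sample. The table's gene lengths were in bp.

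Groups came from the sample titles. The lines were compared with limma 3.58.1 in R 4.3.3 (lmFit, then eBayes with a mean-variance trend) of log2(TPM + 1). Genes averaging 0.5 TPM or more were tested, with Benjamini-Hochberg adjustment over 21500 genes. The procedure was run on simulated data with noise drawn independently for each sample. No simulated sample stood apart as NIL-D replicate 3 did, so that run does not test the calls under such a sample. Tables and figures were made with Python 3.11.15, pandas 2.3.3 and matplotlib 3.10.9. Named members were OsZS_02G0528500, every called gene, the 12 most expressed genes per family, the 3 largest changes per family and direction among genes whose samples did not overlap, and any gene above 0.5 TPM in one line and at or below 0.1 TPM in the other. Enzyme and marker lists were taken by enzyme number, domain or description. The members and lists were chosen with earlier results of these data known.

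Alternatives were quantile normalization or median-ratio rescaling, a pseudocount of 0.1, no filter or a mean of at least 5 TPM, variances without the trend, a block for replicate number, calls by adjusted p alone, narrower family definitions and leaving out each sample. Summing look-alike copies, and median-ratio factors from all genes above 0 in every sample instead of the tested genes, were added after the data had been seen; the second was run after the first version of the rescaling had been seen.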

Additional observations from a re-analysis of the deposited data

How the results depend on the processing

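The number of called ALDH genes was 1 and ranged from 0 to 2 when 1 sample was left out, and it was 0 with no filter and 0 with the replicate block. The number of called ADH genes was 2 and ranged from 1 to 5 when 1 sample was left out. It was 1 with no filter, 1 with a mean of at least 5 TPM, 1 for eBayes without trend, 1 with the replicate block, and 0 with look-alike copies summed, which was chosen after seeing the data. Of all genes, 138 were called, 57 higher and 81 lower, and leaving out 1 sample gave 37 (without NIL-X replicate 1) to 611 (without NIL-D replicate 3). The count was 57 with a mean of at least 5 TPM, 43 with the replicate block and 93 with no filter.

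Replicate numbers were not taken as pairs, since the plot that each stands for is not given. Residuals of samples with the same number correlated at 0.0164, 0.202 and 0.199. Those of samples with different numbers correlated at -0.235 to 0.0593, so the same-number values for replicates 2 and 3 lay above all of these. Whether equal numbers share a plot was not tested. With the replicate block, the adjusted p was 0.121 for OsZS_02G0528500 and 0.112 for OsZS_11G0001600, and OsZS_12G0001400 kept its call.

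The median over all genes shifted on the log2 scale by 0.146 (median-ratio), 0.152 (median-ratio from all genes above 0, chosen after seeing the data) and 0.144 (quantile normalization). The calls were then 75 higher and 62 lower, 75 and 61, and 72 and 54, so the balance of directions turned. The family medians were 0.11, 0.12 and -0.07 for ALDH and 0.06, 0.06 and 0.04 for ADH genes. Signs turned only for genes that were not called. Under the 2 median-ratio forms, log2 fold changes became 0.13 in both for OsZS_02G0595700, 0.04 and 0.05 for OsZS_03G0001800, 0.04 in both for OsZS_08G0007800, 0.08 and 0.09 for OsZS_02G0072000, 0.11 and 0.12 for OsZS_04G0349100, 0.12 and 0.13 for OsZS_07G0083100, and 0.14 and 0.15 for OsZS_09G0251700. Under quantile normalization they became 0.07 for OsZS_02G0595700, 0.02 for OsZS_08G0007800 and 0.03 for OsZS_04G0349100. Without NIL-D replicate 3 they became 0.05 for OsZS_02G0595700, 0.22 for OsZS_08G0007800, 0.22 for OsZS_07G0083100, 0.06 for OsZS_09G0251700 and -0.04 for OsZS_06G0148700. Without NIL-X replicate 1 that of OsZS_02G0595700 became 0.03. Without NIL-X replicate 3 those of OsZS_06G0148700 and OsZS_09G0251700 became -0.14 and 0.06. For these genes the values on leaving out 1 sample ran from -0.11 for OsZS_02G0595700, -0.31 for OsZS_08G0007800, -0.19 for OsZS_07G0083100, -0.09 for OsZS_09G0251700 and up to 0.30 for OsZS_06G0148700. The cause was not tested.

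With no filter the adjusted p was 0.0555 for OsZS_02G0528500 and 0.0776 for OsZS_11G0001600, and for the second gene it was 0.0634 with a mean of at least 5 TPM and 0.0603 for eBayes without trend. With 3 samples per line and no read counts, differences within the printed intervals could not be resolved.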
